A study of Rattus norvegicus with 5 samples.

Results

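Itaconate, arginine and tryptophan immunometabolism was described here through 10 genes: Acod1, Lacc1, Gpr84, Nos2, Arg1, Arg2, Ass1, Slc7a2, Ido1 and Kynu. They were taken by symbol from the probe annotation, and all 10 were found among the 14871 genes named on the array. The cells were mononuclear leukocytes rinsed from the blood vessels of transplanted rat kidneys and freed of most granulocytes and red cells on a Percoll density gradient. Allograft leukocytes came from F344 kidneys (RT1lv1) placed in LEW recipients (RT1l), and isograft leukocytes from LEW kidneys placed in LEW recipients. Donors and recipients were male, both native kidneys of the recipient had been removed, and no recipient received immunosuppression. The strains differ slightly at the MHC class I locus, and the labels give neither the day after transplantation nor the age, nor whether animals were pooled. Donors received heparin before the kidney was taken, recipients received ampicillin after surgery, and both groups of recipients were heparinized before the vessels were rinsed. Each of 5 dual-colour arrays carried an allograft and an isograft sample, with Cy5 on the allograft sample of replicates 1, 3 and 5 and Cy3 on that of replicates 2 and 4. These are given as biological replicates with no animal named, so p-values measure the spread between these arrays.

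Macrophages activated by interferon gamma or microbial products rewire the use of several small molecules. Acod1 diverts aconitate from the citric acid cycle into itaconate, which inhibits succinate dehydrogenase and modifies proteins as an electrophile. Arginine is the shared substrate of the inducible nitric oxide synthase Nos2, which makes nitric oxide and citrulline, and of the arginases, which make ornithine and urea. Tryptophan is oxidised by Ido1 to the precursor of kynurenine, and its depletion and its products restrain T cells. These pathways are studied in rejection because the same phagocytes can damage a graft or limit the T cells that attack it.

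Values are log2 ratios, allograft over isograft, so that a positive value means a higher transcript level in allograft leukocytes. No source states the direction: it was taken as likely because titles and design text put allograft first. Each gene name depends on a spot order worked out from the values. A gene was said to rise or fall when its Benjamini-Hochberg adjusted p in the limma fit, taken over all 33646 genes and unnamed probes tested, was under 0.05. Each ratio compares bulk RNA, so a change in the number of cells of a type and a change in RNA per cell cannot be told apart.

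Of the 10 genes, 4 rose in allograft leukocytes and none fell: Acod1, Gpr84, Lacc1 and Ass1. Over all 14329 named genes tested, 1.07% were called higher and 0.712% lower. At an unadjusted p under 0.05 in the same limma fit 6 of the 10 passed, the additional ones being Arg1 and Ido1, both with negative ratios, and 15.2% of all named genes passed that unadjusted threshold. The 10 ratios ran from -0.74 to 2.77 with a median of 0.34, against a median of -0.0058 over all named genes.

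**Figure D1:**
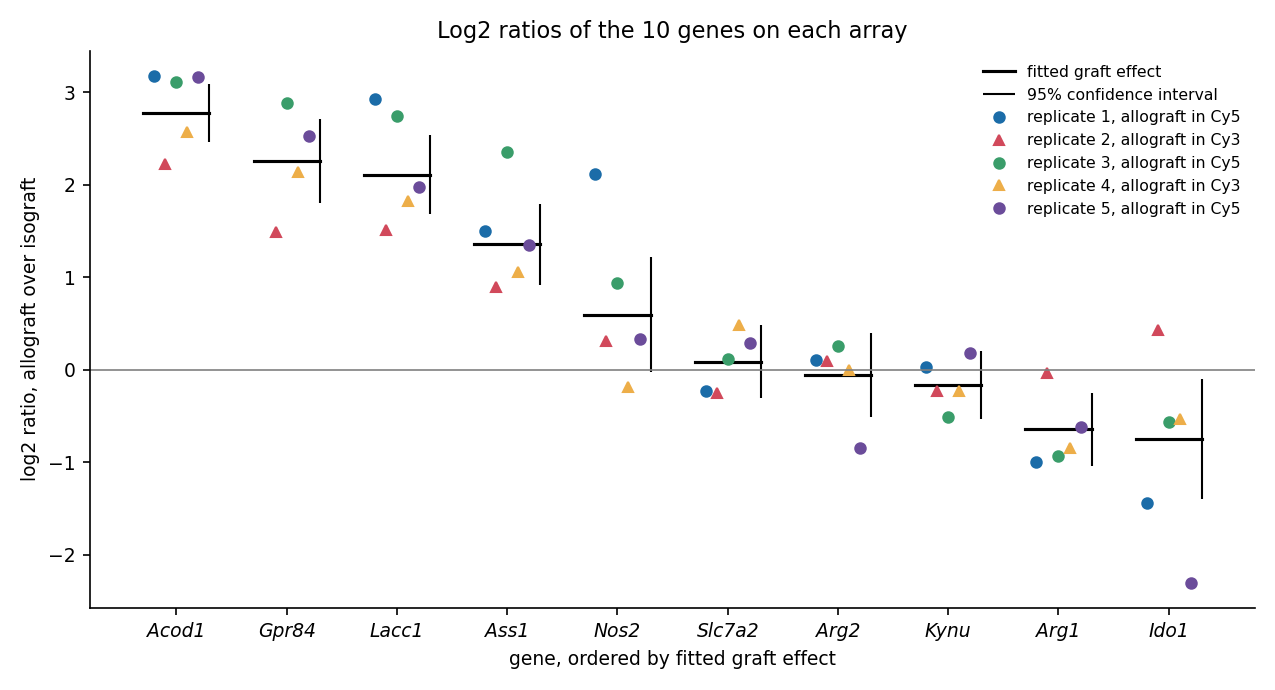
Log2 ratio, allograft over isograft, of each of the 10 genes (x axis, ordered by fitted effect) on each of the 5 arrays; circles mark allograft in Cy5 and triangles allograft in Cy3, horizontal bars the fitted graft effect and vertical lines its 95% confidence interval. All points of Acod1, Gpr84, Lacc1 and Ass1 lie above 0, those of Arg1 lie below 0, and those of the other 5 genes lie on both sides.

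The promoter windows of the 4 genes that rose are shown because these genes passed the test in the same direction. Each holds 250 bases before to 50 bases after an annotated start site, from RefSeq on build GRCr8, 5′ to 3′ on the gene's strand, with capitals marking matches to the NF-kappaB pattern GGGNNNNNCC on either strand. The Acod1 window is chr15:86286289-86286588 (plus strand), Lacc1 chr15:58816791-58817090 (minus strand), Gpr84 chr7:136324524-136324823 (minus strand) and Ass1 chr3:35149480-35149779 (plus strand).
Acod1: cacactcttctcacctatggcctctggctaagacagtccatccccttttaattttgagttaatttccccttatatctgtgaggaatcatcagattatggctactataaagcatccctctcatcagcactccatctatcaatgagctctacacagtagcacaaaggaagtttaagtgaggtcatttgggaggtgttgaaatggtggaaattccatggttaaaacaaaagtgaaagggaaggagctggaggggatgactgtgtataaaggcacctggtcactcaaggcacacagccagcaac
Gpr84: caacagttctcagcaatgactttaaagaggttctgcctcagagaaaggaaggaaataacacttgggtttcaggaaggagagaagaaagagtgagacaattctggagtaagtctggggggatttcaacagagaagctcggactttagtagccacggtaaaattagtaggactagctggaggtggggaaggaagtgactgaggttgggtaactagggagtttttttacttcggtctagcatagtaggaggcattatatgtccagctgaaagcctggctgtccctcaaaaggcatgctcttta
Lacc1: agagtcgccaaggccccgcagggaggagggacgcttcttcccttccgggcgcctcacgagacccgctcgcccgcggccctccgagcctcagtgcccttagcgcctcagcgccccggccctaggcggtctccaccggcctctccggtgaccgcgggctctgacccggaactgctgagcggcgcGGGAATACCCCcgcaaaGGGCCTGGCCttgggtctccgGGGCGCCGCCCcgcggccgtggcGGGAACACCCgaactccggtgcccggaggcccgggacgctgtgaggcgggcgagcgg
Ass1: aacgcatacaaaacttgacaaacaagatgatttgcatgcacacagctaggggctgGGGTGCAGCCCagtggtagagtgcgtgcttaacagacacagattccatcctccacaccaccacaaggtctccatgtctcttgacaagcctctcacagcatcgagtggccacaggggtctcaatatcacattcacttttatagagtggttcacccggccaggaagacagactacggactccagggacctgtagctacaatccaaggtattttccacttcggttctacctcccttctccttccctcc
Of the 10 genes, 5 had a promoter window in the table, these 4 and Kynu. The Ass1 window lies inside the gene's annotated span, with its start site 4965 bases from the outer boundary. The Lacc1 window held 6 matches to the NF-kappaB pattern in 4 separate stretches, the Ass1 window 2 overlapping matches in 1 stretch and the Kynu window 1 match, while the Acod1 and Gpr84 windows held none. This loose pattern was found in 47.3% of all 33469 promoter windows of the same length. No window of the 5 held the IRF pattern GAAANNGAAA or the Nrf2 pattern TGACNNNGC, which were found in 3.92% and 12.1% of all windows. A match describes letters only, and the absence of one says nothing of the factor outside or inside the window.

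Acod1 (chromosome 15, 86286531 to 86295803 on GRCr8), the mitochondrial enzyme that makes itaconate, had ratios of 3.18, 2.22, 3.11, 2.57 and 3.16 on replicates 1 to 5. Its lowest value was more than 2 log2 units above 0, and the arrays with allograft in Cy3 gave the 2 lowest values. The same 2 arrays were lowest for Gpr84, Lacc1 and Ass1. Dye terms were 0.38 for Acod1, 0.45 for Gpr84, 0.44 for Lacc1 and 0.38 for Ass1. None of these terms passed the threshold (limma adjusted p from 0.405 to 0.469). The fitted graft effect of Acod1 was 2.77 ± 0.13 (SE, n = 5), a 6.84-fold rise (limma adjusted p = 0.00241, 95% confidence interval 2.46 to 3.09). It was the 7th largest rise among named genes. Leaving out any array kept the call, with effects from 2.69 to 2.86 and adjusted p-values from 0.00949 to 0.0320. The nearest genes to Acod1 over the 5 arrays, by root mean square difference of the ratio, were Ubd (0.277), a ubiquitin-like modifier induced by interferon gamma, the membrane metalloproteinase Mmp14 (0.322) and complement C2 (0.343).

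Acod1 was set beside the rest of the citric acid cycle. Of 22 genes tested in a list of cycle enzymes, their carriers and itaconate breakdown enzymes, Acod1 alone passed, and the list's median was 0.13. The cycle dehydrogenases Idh2 (0.53 ± 0.16, adjusted p = 0.210) and Mdh2 (0.38 ± 0.14, adjusted p = 0.302) were the largest of those that missed the threshold. The succinate dehydrogenase subunits Sdha, Sdhb, Sdhc and Sdhd, the complex that itaconate inhibits, stood between -0.00042 and 0.32. They were picked for that role after their values had been seen.

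A list of electrophile-response genes, some of which itaconate derivatives can induce in mouse macrophages, had 11 tested genes, of which 1 rose. The list mixes regulators, among them Keap1 and Nfkbiz, with target genes, so its members need not move in 1 direction. Atf3, a stress-induced transcription factor that damps inflammatory genes, had ratios of 2.44, 1.17, 1.68, 1.79 and 1.45 and rose by 1.67 ± 0.19 (adjusted p = 0.0158). All 5 arrays were clearly above 0, but the call was lost without replicate 1, 3, 4 or 5 (adjusted p from 0.0562 to 0.106). Nfkbiz, an NF-kappaB regulator (0.65 ± 0.15, adjusted p = 0.111), and Nfe2l2, which encodes Nrf2 (0.53 ± 0.16, adjusted p = 0.190), were above 0 on 5 of 5 arrays without passing. Of all named genes tested, 10.6% were above 0 on every array with a value. The list's median was 0.35, and 8 of the 11 genes had a fitted effect above 0, against 49.1% of all named genes. Those below 0 were Gclm (-0.30 ± 0.15), Nqo1 (-0.25 ± 0.17) and Srxn1 (-0.21 ± 0.16), and Gclc stood at 0.044 ± 0.16. None of these passed, and they were named after their values had been seen.

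Gpr84 (chromosome 7, 136322374 to 136324648), a G protein-coupled receptor for medium-chain fatty acids on myeloid cells, had no value on replicate 1 and ratios of 1.49, 2.88, 2.14 and 2.53 on replicates 2 to 5. These came from 1 probe, and all 4 lay above 0. The fitted effect was 2.26 ± 0.18 (SE, n = 4), a 4.79-fold rise (adjusted p = 0.00877). The other probe had values on 3 arrays only, 0.49, 1.54 and 0.46 on replicates 2, 3 and 4, each lower than the tested probe on the same array, and was left out by the filter on missing values. With the filter set after averaging both probes, an alternative chosen after seeing the data, Gpr84 rose by 1.76 (adjusted p = 0.0130). The call was lost without replicate 3 (2.17, adjusted p = 0.0719) or replicate 5 (1.68, adjusted p = 0.0965), and without replicate 1 (1.76) or 5 the lower probe entered the average.

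Other receptors for metabolites did not pass: Gpr84 was the only 1 of 12 tested, and the list's median was -0.15. Hcar2, the receptor for nicotinic acid and beta-hydroxybutyrate, had ratios of 1.76, 1.23, 0.92, -0.065 and 0.63 (effect 0.84 ± 0.25, adjusted p = 0.189). Replicate 4 alone was below 0. Ffar3, a receptor for short-chain fatty acids, was below 0 on all 4 arrays with a value (-0.60 ± 0.16, adjusted p = 0.170). The itaconate and 2-oxoglutarate receptor Oxgr1 stood at -0.17 ± 0.14 and the succinate receptor Sucnr1 at 0.034 ± 0.19, both named after their values had been seen.

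Lacc1 (chromosome 15, 58799477 to 58816840), a purine-metabolising enzyme of macrophages that in mice also turns citrulline into ornithine, had ratios of 2.93, 1.51, 2.75, 1.82 and 1.98. All were above 1.5, with replicates 1 and 3 highest and replicates 2 and 4, with allograft in Cy3, lowest. The fitted effect was 2.11 ± 0.18 (SE, n = 5), a 4.32-fold rise (adjusted p = 0.00689). Both probes rose when fitted singly, by 1.59 ± 0.18 (adjusted p = 0.0122) and 2.63 ± 0.21 (adjusted p = 0.00524), the second standing above the first on 5 of 5 arrays. Each fit that left out an array kept the call (adjusted p from 0.0269 to 0.0468). Among named genes with values on all 5 arrays, which leaves out Gpr84, the redox protein thioredoxin Txn1 was nearest to Lacc1 (root mean square difference 0.307). The interferon-induced GTPases Gbp2 and Gbp4 followed (0.332 and 0.333). Txn1 was also nearest to Gpr84 (0.302, over 4 arrays), with Lacc1 next (0.325).

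**Figure D2:**
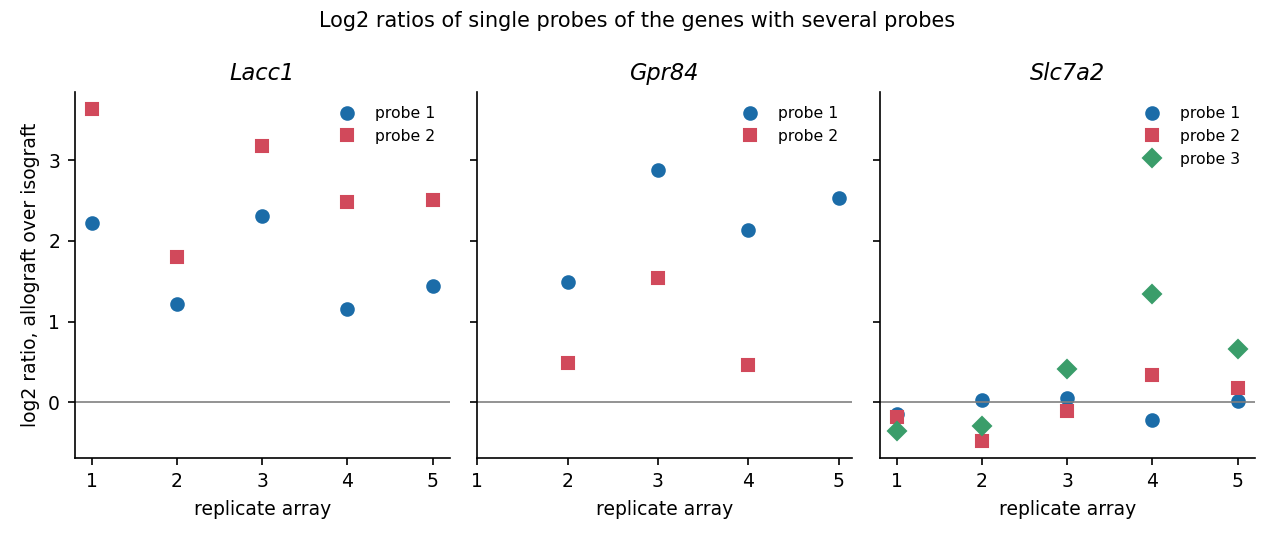
Log2 ratio, allograft over isograft, of each single probe of Lacc1, Gpr84 and Slc7a2 on the 5 replicate arrays (x axis). Both Lacc1 probes lie above 1 on every array, the second Gpr84 probe lies below the first on the 3 arrays that measured both, and the Slc7a2 probes spread around 0 with 1 probe reaching 1.34 on replicate 4.

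A list of purine and fatty acid genes was set beside Lacc1. Of 10 genes tested, 3 rose: Lacc1 itself, Pnp and Ada. Pnp, purine nucleoside phosphorylase, had ratios of 1.44, 1.19, 1.67, 0.98 and 1.13 and rose by 1.25 ± 0.14 (adjusted p = 0.0157). Ada, adenosine deaminase, stood between 0.66 and 1.02 on all arrays and rose by 0.81 ± 0.13 (adjusted p = 0.0398). Its 2 probes gave 0.58 (adjusted p = 0.105) and 1.03 (adjusted p = 0.0256) when fitted singly. Pnp and Ada each lost the call in all 5 fits that left out an array, with adjusted p-values up to 0.0943 for Pnp and 0.208 for Ada. Cpt1a, which carries fatty acids into mitochondria (-0.44 ± 0.18, adjusted p = 0.358), and Hadhb, a beta-oxidation enzyme (0.24 ± 0.16, adjusted p = 0.576), did not pass.

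Ass1 (chromosome 3, 35144765 to 35194632), which joins citrulline and aspartate on the way back to arginine, had ratios of 1.50, 0.89, 2.36, 1.05 and 1.35. All were above 0, with replicate 3 clearly highest and replicates 2 and 4, with allograft in Cy3, lowest. Ass1 rose by 1.36 ± 0.18 (SE, n = 5), 2.56-fold (adjusted p = 0.0246, 95% confidence interval 0.92 to 1.79). The call did not survive the loss of any single array: the effect stayed between 1.20 and 1.45, with adjusted p of 0.0631 to 0.153. The closest profiles were those of Ggct, a gamma-glutamyl cyclotransferase of glutathione turnover (0.309), the chemokine Ccl4 (0.323) and the annexin Anxa3 (0.339). Ass1 is abundant in the proximal tubule of the kidney. Of 14 kidney tubule and podocyte markers tested, none passed in the limma fit (1 at an unadjusted p under 0.05). Their ratios ran from -0.47 to 0.26 with a median of -0.12. Ratios give no level of these markers in either group, and the part of tubule cells in the Ass1 ratio was not tested.

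Nos2 (chromosome 10, 64313335 to 64349221), the inducible nitric oxide synthase, had ratios of 2.12, 0.31, 0.94, -0.19 and 0.33. Replicate 1 was more than 1 log2 unit above the others and replicate 4 was below 0. The effect of 0.60 ± 0.26 did not pass (adjusted p = 0.400), and its 95% confidence interval ran from -0.026 to 1.22. Without replicate 1 the effect was 0.35, and without any other array it lay between 0.47 and 0.80.

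Arg1 (chromosome 1, 22295093 to 22307720), the cytosolic arginase of the urea cycle and of alternatively activated macrophages in mice, had ratios of -0.99, -0.037, -0.93, -0.84 and -0.61. Replicate 2 lay close to 0 and the other 4 arrays were clearly below it. The effect was -0.64 ± 0.17 with a 95% confidence interval of -1.04 to -0.25, and it did not pass over all rows tested (adjusted p = 0.139). Of all named genes tested, 10.5% were likewise below 0 on every array with a value. Within each array the ratio of Nos2 exceeded that of Arg1, by 3.11, 0.35, 1.87, 0.65 and 0.95 on replicates 1 to 5, a description without a test.

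Arg2 (chromosome 6, 103669001 to 103694375), the mitochondrial arginase, had ratios of 0.11, 0.096, 0.26, 0.0022 and -0.85. The first 4 arrays lay within 0.26 of 0 and replicate 5 was well below. Its effect of -0.055 ± 0.19 did not pass (adjusted p = 0.923), and the sign turned without replicate 5 (0.12) and with arrays scaled to a common spread or quantile normalized. Slc7a2 (chromosome 16, 58115991 to 58174256), the cationic amino acid transporter CAT2 that supplies arginine to Nos2, had averages of -0.23, -0.25, 0.12, 0.49 and 0.29. Its effect was 0.089 ± 0.17 (adjusted p = 0.851). Of its 3 probes, 2 stood near 0 (-0.058 and -0.055) and the third at 0.38 ± 0.27, and none passed singly.

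Across the 23 tested genes of arginine uptake and use, Ass1 alone passed, 10 genes were above 0 and the median was -0.037. Asl, Slc7a1 and Nos3, genes of the same steps, were named after their values had been seen. Asl, which completes arginine resynthesis after Ass1, stood at 0.36 ± 0.14 (limma adjusted p = 0.341) and was above 0 on 5 of 5 arrays. Of all named genes tested, 10.6% were likewise above 0 on every array with a value. The constitutive transporter Slc7a1 stood at -0.0018 ± 0.13 and the endothelial synthase Nos3 at -0.037 ± 0.21. None of the 15 tested polyamine and ornithine genes passed in the limma fit (4 at an unadjusted p under 0.05, which 15.2% of all named genes reached). Smox, spermine oxidase (-0.71 ± 0.20, adjusted p = 0.172), and Dhps, which starts hypusine formation (0.54 ± 0.15, adjusted p = 0.159), were the farthest from 0, and Odc1, ornithine decarboxylase, named after its value had been seen, stood at -0.12 ± 0.16.

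Tetrahydrobiopterin is the cofactor nitric oxide synthases need. None of its 5 tested genes passed in the limma fit (2 at an unadjusted p under 0.05). Gchfr, the feedback inhibitor of the rate-limiting enzyme, had ratios of -0.90, -0.54, -1.30, -1.10 and -0.64. All 5 arrays were below -0.5, and the effect of -0.88 ± 0.17 missed the threshold (adjusted p = 0.0599), which it passed without the dye term and after subtraction of a local trend. Gch1, the rate-limiting enzyme itself, also named after its value had been seen, stood at -0.17 ± 0.15, and the recycling enzyme Qdpr at 0.41 ± 0.15 (adjusted p = 0.299).

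**Figure D3:**
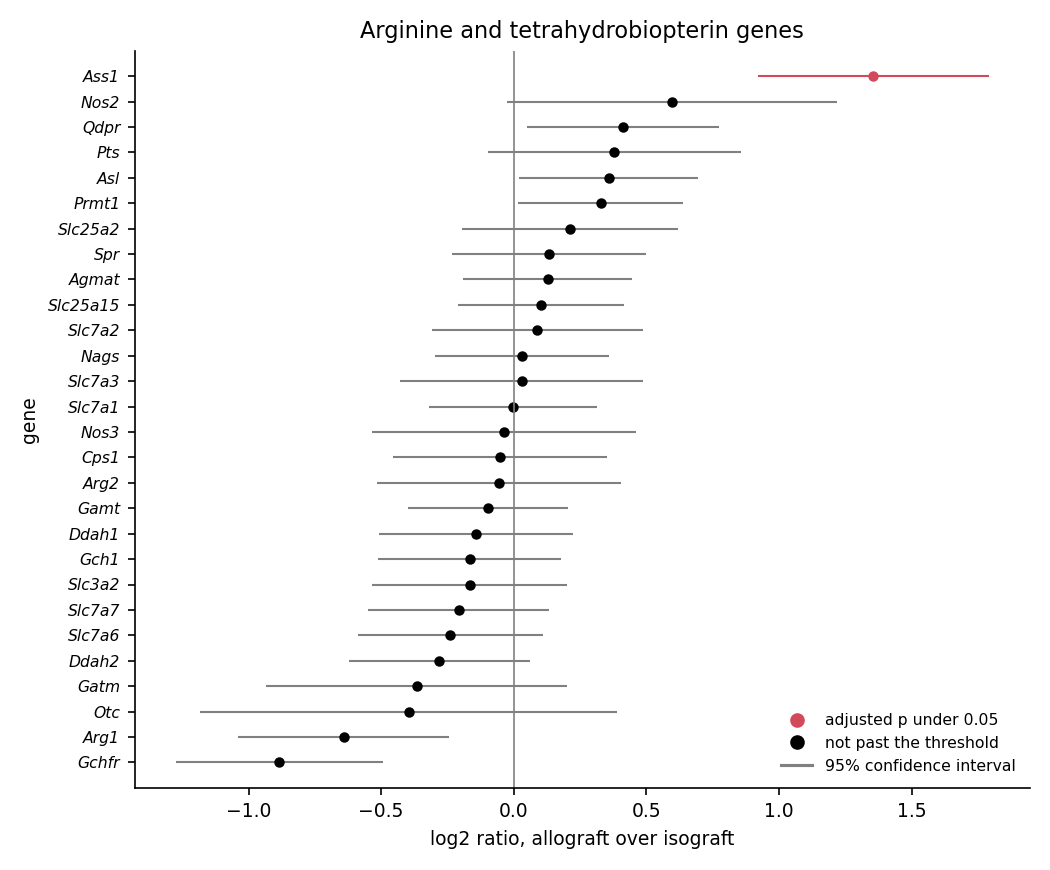
Fitted log2 ratio, allograft over isograft, of each tested gene of arginine uptake and use and of tetrahydrobiopterin synthesis (y axis, sorted); horizontal lines are 95% confidence intervals. Ass1 (1.36) is the single gene past the threshold, with Gchfr (-0.88) and Arg1 (-0.64) at the lower end.

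Ido1 (chromosome 16, 74133259 to 74145328), the interferon-induced enzyme that opens tryptophan breakdown, had ratios of -1.44, 0.43, -0.56, -0.53 and -2.30. The arrays disagreed over more than 2.5 log2 units: replicates 1 and 5, both with allograft in Cy5, were lowest and replicate 2, with allograft in Cy3, was above 0. The effect of -0.74 ± 0.27 did not pass (adjusted p = 0.297, 95% confidence interval -1.39 to -0.095). The dye term was as large, -0.69 ± 0.27 (adjusted p = 0.425), and neither term was told apart from 0 after adjustment. Kynu (chromosome 3, 48188286 to 48338996), kynureninase, which cleaves kynurenine and 3-hydroxykynurenine, had ratios of 0.029, -0.23, -0.51, -0.23 and 0.18. Its values lay on both sides of 0 and the effect was -0.16 ± 0.15 (adjusted p = 0.697).

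Of the 22 tested tryptophan and kynurenine genes, 1 rose, 11 were above 0 and the median was 0.022. The gene that rose was Nampt, which salvages nicotinamide to NAD and is not itself a kynurenine enzyme. Nampt had averages of 1.40, 0.86, 1.56, 1.35 and 1.15 and an effect of 1.24 ± 0.15 (adjusted p = 0.0166). Its 4 probes differed, at 2.60, 1.13, 0.75 and 0.43, and 1 of them passed singly (adjusted p = 0.00325). The call was lost without replicate 1, 3, 4 or 5. Gpr35, a receptor for the kynurenine product kynurenic acid, stood at or below 0 on the 4 arrays with a value (-0.51 ± 0.20, adjusted p = 0.366). Wars1, Kmo and Tdo2 were named after their values had been seen. The interferon-induced tryptophanyl-tRNA synthetase Wars1 stood at 0.40 ± 0.13 (limma adjusted p = 0.240). Wars1 was above 0 on 5 of 5 arrays, and 10.6% of all named genes were above 0 on every array with a value. Kynurenine 3-monooxygenase Kmo stood at -0.14 ± 0.21 and the liver enzyme Tdo2 at -0.21 ± 0.15.

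**Figure D4:**
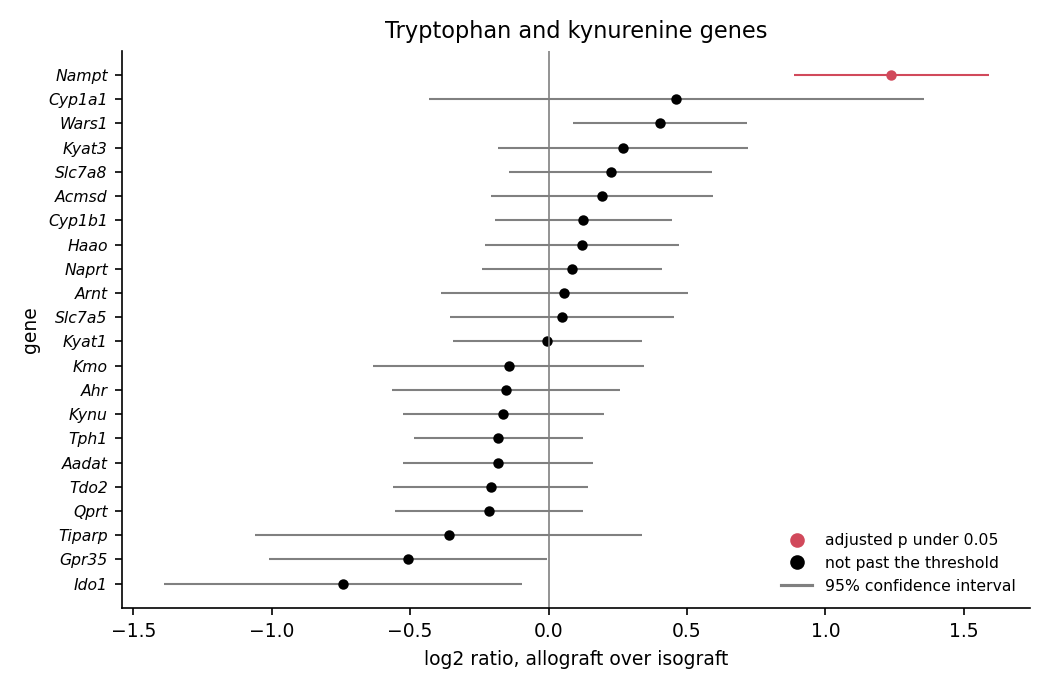
Fitted log2 ratio, allograft over isograft, of each of the 22 tested tryptophan and kynurenine genes (y axis, sorted); horizontal lines are 95% confidence intervals. Nampt (1.24) is the single gene past the threshold and Ido1 (-0.74) is lowest.

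Interferon gamma is a known inducer of Acod1, Nos2, Ido1 and Wars1. Of 8 tested genes of its signalling, 2 rose: Ifng itself (1.76 ± 0.16, adjusted p = 0.00756), with ratios of 2.00, 1.28, 2.75, 1.20 and 2.09, and its target Irf1 (1.57 ± 0.13, adjusted p = 0.00659). The kinase Jak2 (0.69 ± 0.15, adjusted p = 0.0809) and the inhibitor Socs3 (-0.60 ± 0.26, n = 4, adjusted p = 0.404) did not pass. None of 13 tested genes of alternative macrophage activation passed in the limma fit (2 at an unadjusted p under 0.05), and the median was -0.064. Tgm2, a transglutaminase (0.73 ± 0.14, adjusted p = 0.0655), passed with quantile normalization, and the nuclear receptor Pparg stood at -0.69 ± 0.22 (adjusted p = 0.216).

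Taking all pathway lists without the 10 genes, 6 of 130 tested genes rose and none fell, 4.62% against 1.78% of all named genes in either direction, with a median of 0.034. These 6 were Atf3, Ifng, Irf1, Pnp, Ada and Nampt. The lists, like the 10 genes, were chosen with earlier results of these data known, so the difference in share is no test of them.

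**Figure D5:**
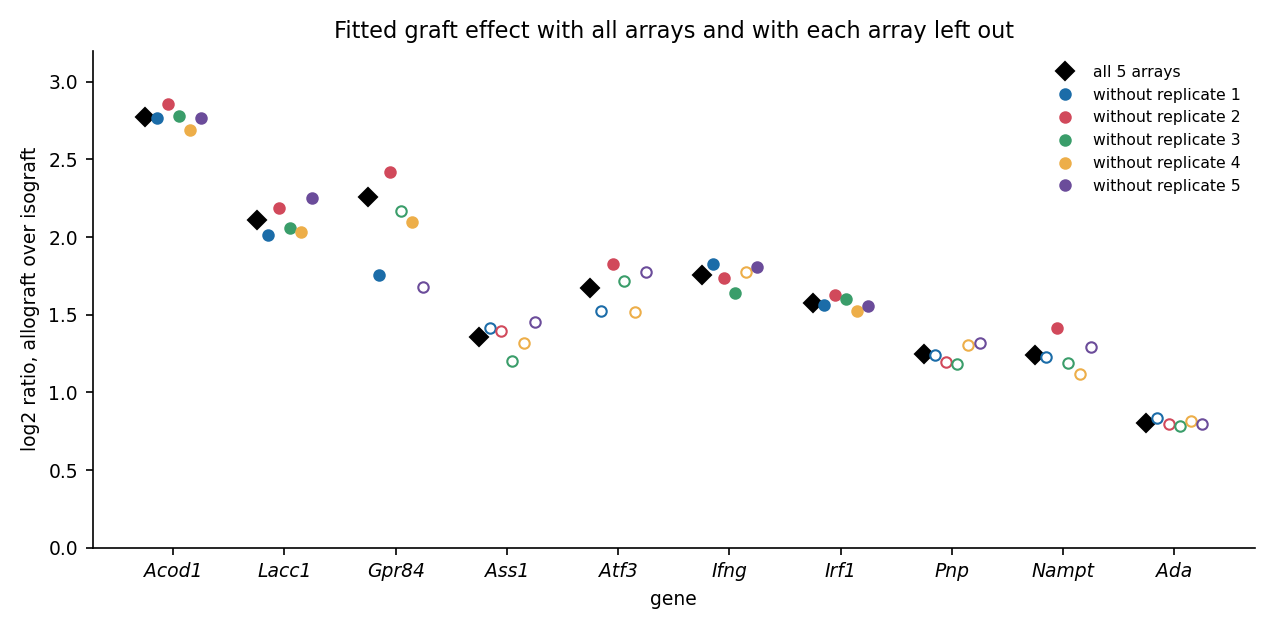
Fitted log2 ratio, allograft over isograft, of the 10 called genes with all 5 arrays (diamonds) and with each array left out (circles); filled symbols passed the threshold and open symbols did not. Acod1, Lacc1 and Irf1 passed in all 5 reduced fits, while Ass1, Pnp and Ada passed in none.

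Monocytes and macrophages are known sources of Acod1, Gpr84 and Lacc1. Of their 11 tested markers 2 rose, Cd14, which binds endotoxin (1.42 ± 0.17, adjusted p = 0.0173), and the calcium-binding Aif1 (1.02 ± 0.13, adjusted p = 0.0221). The list's median was 0.26 and its ratios ran from -0.85 to 1.42. The list's median per array was 0.67, 0.0072, 0.45, -0.035 and 0.46 on replicates 1 to 5. Cd14 stood at 2.01, 0.44, 2.05, 1.36 and 1.78 on these arrays, and Aif1 at 1.41, 0.88, 1.05, 0.81 and 1.12. At an unadjusted p under 0.05 in the limma fit, 6 of the 11 passed, among them Ccr2 (-0.85) and Cx3cr1 (-0.33) with negative ratios. Of all named genes 15.2% passed that unadjusted threshold. None of 13 granulocyte markers passed in the limma fit (4 at an unadjusted p under 0.05; median -0.23), none of 12 endothelial markers (2; median -0.017) and none of 8 dendritic cell markers (2; median 0.096). Of 7 tested platelet markers 5 fell, Clec1b (-3.12), Pf4 (-3.12), Gp1bb (-2.98), Treml1 (-2.23) and Gp5 (-1.32), and the list ran from -3.12 to -0.20 with a median of -2.23. Of 7 red cell markers 4 fell, Hbb (-2.26), Ahsp (-1.98), Alas2 (-1.54) and Klf1 (-1.10), and the list ran from -2.26 to -0.30 with a median of -1.54. Of 10 T cell markers Cd3e rose (1.10, list from -0.12 to 1.10, median 0.42), and of 8 NK cell markers Klrk1 (1.16) and Nkg7 (0.84) rose (list from -0.61 to 1.16, median 0.28). None of 5 B cell markers passed in the limma fit (4 at an unadjusted p under 0.05; median -0.85). The part of these cell types in the ratios of the 10 genes was not tested, and a table of ratios gives no level of a marker in either group.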

How the data were processed

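Each array gave a log2 ratio of allograft over isograft per spot, as deposited by the authors. Log base, scanner, background correction and normalization: not given in the sources used here. Folds assume base 2. Columns had medians between -0.012 and 0.028 and values for 41033 to 43286 of 44290 spots. Their spread differed, with standard deviations of 0.74, 0.51, 0.52, 0.85 and 0.83 on replicates 1 to 5, and the main fit did not scale it. Without spot intensities no signal over background is known. Precision is limited by having 5 arrays.

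Rows could not be matched to the annotation by number: probes sharing an accession then correlated at 0.0053. The layout of 103 rows by 430 columns, listing 215 columns of 1 parity before the others and annotated from the opposite corner down the columns, gave 0.457 over 4612 pairs, against 0.0276 for the next best order tried. Replicates 2 and 4 were used as deposited: turning them left 0 of 14329 named genes called in the limma fit, against 255. Turning them swaps the graft and dye terms of the model. These counts thus compare the graft term with the dye term, and by themselves they do not settle the orientation. On replicates 1, 3 and 5, 99.2% to 99.5% of values carried more than 6 significant digits, against 0% on replicates 2 and 4. The columns with allograft in Cy3 were thus written differently. Whether this came with a turn of their sign is not known. Between arrays of opposite dye the correlation over named probes ran from -0.0744 to 0.427, and over all spots down to -0.394. Between arrays of the same dye the correlation over named probes ran higher, from 0.235 to 0.627, so agreement between arrays partly followed the dye.

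Symbols were updated with the GRCr8 RefSeq table, which matched 23488 of 23535 probes with 1 gene. Probes with values on at least 4 arrays and in both dye orientations were averaged per symbol. A set of 407 dye-following spots (mean ratio above 3 in the direction of the dye), none on a named probe, was left out. The model, in limma 3.58.1 (R 4.3.3), had a graft and a dye term (two-sided tests, Benjamini-Hochberg over all rows), checked on simulated data. Alternatives changed the dye term, scaling, centring, variance prior, array weights, probe averaging, missing-value filter, local trend, dye-following spots and the arrays used. The filter set after averaging probes was added after seeing the data. The 10 genes and all lists were chosen with earlier results of these data known. The genes named are the 10, each called gene of a pathway or marker list, the 2 others with the largest ratio in each pathway list, and the 3 nearest profiles of each called gene of the 10. Any other gene was named after its values had been seen.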

Additional observations from a re-analysis of the deposited data

Results flagged for a closer look

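Arg2 on replicate 5 stood at -0.85, below the other 4 arrays by a gap of 0.770 of the whole range. It was the only 1 of the 10 genes, and of the 6 further pathway genes that rose, with an array so far from the others by Dixon's criterion. Chance alone gives about 1 such result in 20 for each gene looked at, so 1 among all these genes is not unusual.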

How the results depend on the processing

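Of the 10 genes, 4 were called in 9 of the 12 alternatives that kept all arrays, among them the fits without the dye term, with quantile normalization and with a local trend subtracted. With arrays scaled to a common spread 1 was called, Acod1 (2.90, adjusted p = 0.0391), while Lacc1 (adjusted p = 0.0617), Gpr84 (0.0645) and Ass1 (0.138) had effects no smaller than before, and 2 of the other pathway genes were called in place of 6. With an unmoderated limma fit 0 of the 10 and 0 of the other pathway genes passed (5 and 30 at an unadjusted p under 0.05), as did 0 of all named genes (2356 at an unadjusted p under 0.05). Leaving out an array gave 2 to 3 of the 10, 1 to 4 other pathway genes, and a median effect over the 10 from 0.26 to 0.46. Ifng lost its call without replicate 4 (adjusted p = 0.0506), and 1 other pathway gene passed without that array. That median was 0.089 with values required on all arrays, where Gpr84 is not tested. Effects whose sign turned were never past the threshold: Arg2, at 0.0079 with scaled arrays and 0.015 with quantile normalization, and from -0.16 to 0.12 with an array left out, and Slc7a2, at -0.055 by its middle probe and from -0.095 to 0.27 with an array left out. With each gene taken by its middle or lower middle probe in place of the average, Nampt (0.75, adjusted p = 0.0830) and Ada (0.58, adjusted p = 0.105) lost the call. The cause of these changes was not tested. Some of the settings themselves leave a smaller number of arrays or genes. The fit was already paired by array, because each ratio sets an allograft sample against an isograft sample. The ratios thus form 1 group.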

Other observations

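Tiparp, a target of the aryl hydrocarbon receptor to which kynurenine binds, had ratios of -2.59, 1.77, -1.23, 1.58 and -3.37 on replicates 1 to 5. It was negative on the 3 arrays with allograft in Cy5 and positive on the 2 with allograft in Cy3, with a dye term of -2.04 (adjusted p = 0.329) and a graft effect of -0.36 (adjusted p = 0.655). Other genes downstream of that receptor did not share this pattern: Cyp1a1 had ratios of -1.12, -0.10, 0.55, 2.20 and 0.20, and Cyp1b1 lay between -0.024 and 0.35. These 3 genes were named after their values had been seen.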
